A study of Mus musculus with 16 samples.

Results

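Bile acid synthesis and canalicular sterol transport are described here through 10 genes: Cyp7a1, Cyp8b1, Cyp27a1, Abcb11, Abcb4, Abcg5, Abcg8, Slc10a1, Nr0b2 and Nr1h4. They were chosen by name, with earlier results of these data known, and each was measured by the probe set that carries its symbol alone. Every one of the 10 had 1 such probe set, and they are 10 of the 19938 genes tested. Liver RNA of 16 adult mice was measured on Affymetrix MoGene 1.0 ST arrays, which read probes along the whole transcript, with 1 array per animal. The 4 groups of 4 animals were Gli2 heterozygous null mice given a high-fat diet (Het high-fat), Gli2 heterozygous null mice given a control diet (Het control), wild-type mice given a high-fat diet (WT high-fat) and wild-type mice given a control diet (WT control), each for 12 weeks. Gli2 is a transcription factor of hedgehog signalling. Which part of Gli2 the null allele lacks is not stated in these sources, nor are the strain, the sex and the exact age. In the wild-type samples the genotype label names Gli1, while the series design speaks of Gli2, and they are treated as wild type for Gli2. Animals are numbered in record order, and a shared number does not pair animals of different groups.

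Hepatocytes turn cholesterol into bile acids, pump them with phospholipid and sterol across the canalicular membrane into bile, and take returning bile acids back up from portal blood. Bile acids hold down their own synthesis through the farnesoid X receptor and the small heterodimer partner, while oxysterols act through the liver X receptors, which drive the sterol exporters. Synthesis has a classic pathway that starts in the endoplasmic reticulum with Cyp7a1 and an alternative pathway that starts in mitochondria with Cyp27a1.

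Levels are log2 values from RMA, made by the authors, and they are compared only between samples of the same probe set. Differences are log2 differences with their standard error (SE) from 1 limma fit over all 16 arrays, with p-values adjusted over 19938 genes by the Benjamini-Hochberg method. Calls were made where this adjusted p was under 0.05, and the verbs rose and fell are kept for called genes. Het control animal 2 differed from all other animals. Over the 19938 genes it correlated with the other arrays at 0.961 to 0.979, where those correlated among themselves at 0.991 to 0.998, and its values had an interquartile range of 1.95, against 2.40 to 2.60. It was kept, and values without it are given where they matter. The Gli2 probe set read 7.46 to 7.61 in Het high-fat livers, 7.50 to 8.14 in Het control livers, 7.40 to 7.57 in WT high-fat livers and 7.54 to 7.58 in WT control livers. Averaged over diets, the Het minus WT difference of Gli2 was 0.08 (SE 0.07, adjusted p = 0.632 with limma), and 0.0048 (SE 0.04, adjusted p = 0.985) in a fit, chosen after seeing the data, without Het control animal 2, which read 8.14. The genotypes were not separated by this probe set. The missing part of the allele is unknown, and why the probe set did not separate them was not tested. The Gli1 difference was 0.05 (SE 0.04, adjusted p = 0.633 with limma). Hepatocyte markers were high in all groups, with mean levels over 11 markers of 13.36 to 13.45 in Het high-fat livers, 13.23 to 13.45 in Het control livers, 13.34 to 13.40 in WT high-fat livers and 13.34 to 13.46 in WT control livers.

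With limma, 0 of the 10 genes were called in each of the 7 comparisons made, in which 0% to 2.22% of all genes were called: diet within each genotype, diet over both genotypes, genotype within each diet, genotype over both diets, and the interaction of diet with genotype. In each comparison 1 to 3 of the 10 had an unadjusted p under 0.05, where 3.57% to 31.6% of all genes did. The sterol exporter genes Abcg5 and Abcg8 came closest, with lower values on the high-fat diet and lower values in heterozygotes. Nr0b2, the small heterodimer partner, read lower on the high-fat diet in both genotypes, with a wide spread between animals. The enzymes Cyp7a1, Cyp8b1 and Cyp27a1, the bile salt and phospholipid pumps and the uptake carrier had 95% intervals that included 0 in every diet and every genotype comparison.

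**Figure D1:**
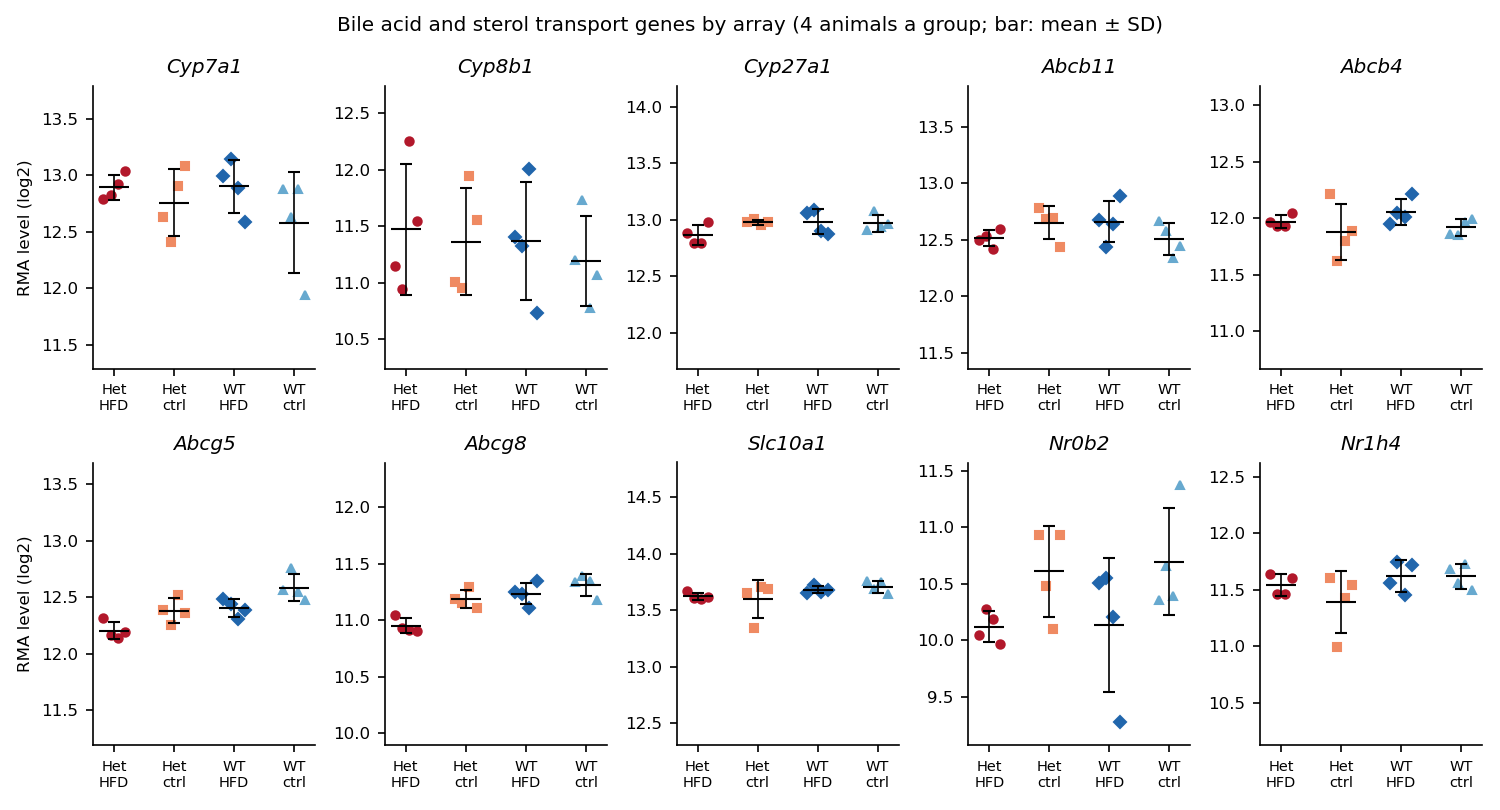
Log2 RMA level of each of the 10 genes in every array, by group, with the group mean ± SD (4 animals a group); each panel spans the same number of log2 units around its own centre, so spreads can be compared between panels but levels cannot. Abcg8 in Het high-fat livers (10.90 to 11.05) lies below all other arrays (11.11 to 11.39), a pattern whose share over all genes was not counted. Cyp8b1 and Nr0b2 scatter widely in most groups.

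Cyp7a1, the cholesterol hydroxylase that limits the rate of the classic pathway, read 12.79, 12.83, 12.92 and 13.03 in Het high-fat livers and 12.63, 12.41, 12.91 and 13.08 in Het control livers. Wild-type livers gave 13.00, 13.14, 12.89 and 12.59 on the high-fat diet and 12.88, 12.63, 12.88 and 11.94 on the control diet. The groups overlapped throughout, and WT control animal 4 was the lowest of all 16 arrays. The high-fat minus control difference was 0.14 in heterozygotes (SE 0.18, 95% interval -0.25 to 0.53, limma adjusted p = 0.581) and 0.32 in wild type (SE 0.18, interval -0.06 to 0.71, adjusted p = 0.849). Without WT control animal 4 the wild-type difference was 0.11, and without Het control animal 2 the heterozygote difference was 0.02. By genotype, Het minus WT was -0.01 on the high-fat diet and 0.17 on the control diet (SE 0.18 each, adjusted p = 0.9996 and 0.562). The value on the control diet was -0.04 without WT control animal 4, 0.07 without Het control animal 4 and 0.29 without Het control animal 2.

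Cyp8b1, the sterol hydroxylase that sets the proportion of cholic acid, had the largest standard deviation of the 10 genes when pooled over the 4 groups, at 0.497, followed by Nr0b2 at 0.436. In the WT high-fat and WT control groups alone that of Nr0b2 was larger. Its levels were 11.15, 10.94, 12.25 and 11.55 in Het high-fat livers, 11.01, 10.95, 11.94 and 11.56 in Het control livers, 11.40, 11.32, 12.01 and 10.73 in WT high-fat livers, and 11.20, 11.73, 10.77 and 11.07 in WT control livers. Every group held animals both high and low, and no group stood apart. The diet difference was 0.11 in heterozygotes (SE 0.30, 95% interval -0.52 to 0.74, limma adjusted p = 0.799) and 0.17 in wild type (SE 0.30, interval -0.46 to 0.81, adjusted p = 0.962). These intervals allow differences of either sign larger than those measured.

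Cyp27a1, the mitochondrial sterol hydroxylase of the alternative pathway, was the steadiest of the enzymes. It averaged 12.86 ± 0.09 in Het high-fat livers, 12.98 ± 0.02 in Het control livers, 12.98 ± 0.11 in WT high-fat livers and 12.97 ± 0.08 in WT control livers (SD, n = 4 each). The high-fat minus control difference was -0.12 in heterozygotes (SE 0.07, 95% interval -0.26 to 0.02, limma adjusted p = 0.221) and 0.01 in wild type (SE 0.07, interval -0.13 to 0.15, adjusted p = 0.993).

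Abcb11, the bile salt export pump of the canalicular membrane, is a textbook target of the farnesoid X receptor. Its promoter window, 250 bases before to 50 bases after the start, is shown because the receptor's motif can be read in it (RefSeq, GRCm38.p6, chr2:69342567-69342866, minus strand). Capitals mark the matches found to the inverted repeat AGGTCANTGACCT, with up to 2 mismatches to its fixed bases.
Abcb11 window: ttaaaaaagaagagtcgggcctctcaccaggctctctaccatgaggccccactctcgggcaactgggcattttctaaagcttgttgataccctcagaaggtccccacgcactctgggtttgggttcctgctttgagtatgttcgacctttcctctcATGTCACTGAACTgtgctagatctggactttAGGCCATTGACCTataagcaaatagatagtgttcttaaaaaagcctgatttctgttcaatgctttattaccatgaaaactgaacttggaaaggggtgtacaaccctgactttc
With the start base counted as 0, the match AGGCCATTGACCT lies at -63 to -51 with 1 mismatch, and ATGTCACTGAACT at -94 to -82 with 2. The first holds the single nuclear receptor motif AGGTCA on the reverse strand, as TGACCT, at -56 to -51. Of the 32851 promoter windows of all genes in the same table, 1.138% held such an inverted repeat, and of the 11 windows of 9 of the 10 genes, 1 did. Cyp7a1 had no entry in the table. A match is a string of letters, not a measured binding site.

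Abcb11 levels were 12.50, 12.54, 12.42 and 12.60 in Het high-fat livers and 12.79, 12.69, 12.69 and 12.44 in Het control livers. In wild type they were 12.68, 12.44, 12.64 and 12.89 on the high-fat diet and 12.67, 12.58, 12.34 and 12.45 on the control diet. On the high-fat diet 3 of the 4 heterozygotes lay within the range of the wild-type animals, and all groups overlapped. The diet difference was -0.14 in heterozygotes (SE 0.10, 95% interval -0.34 to 0.07, limma adjusted p = 0.304) and 0.15 in wild type (SE 0.10, interval -0.05 to 0.36, adjusted p = 0.877). The interaction, which tests whether these differ, was -0.29 (SE 0.14, interval -0.58 to -0.003) with an unadjusted p of 0.0482 and a limma adjusted p of 0.610, so it did not pass. Abcb11 was the 1 gene of the 10 with an unadjusted interaction p under 0.05, against 8.13% of all genes.

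Abcb4, the canalicular phosphatidylcholine floppase, averaged 11.97 ± 0.06 in Het high-fat livers, 11.88 ± 0.25 in Het control livers, 12.06 ± 0.12 in WT high-fat livers and 11.92 ± 0.07 in WT control livers (SD, n = 4 each). The diet difference over both genotypes was 0.11 (SE 0.07, 95% interval -0.03 to 0.26, limma adjusted p = 0.259). Without Het control animal 2, which gave the lowest Abcb4 value of all arrays at 11.62, the diet difference in heterozygotes was 0.01, against 0.09 with it.

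Abcg5 and Abcg8 encode the partners of a heterodimer that exports cholesterol and plant sterols into bile, and both are known targets of the liver X receptors. The genes lie head to head on chromosome 17. In the RefSeq table (GRCm38.p6) the Abcg5 start is at 84683011 on the minus strand and an Abcg8 start is at 84683121 on the plus strand, 110 bases apart, so their promoter windows share 209 bases. A further Abcg8 start is listed at 84676302. The Abcg5 window is shown because most of it also belongs to the Abcg8 window (chr17:84682962-84683261, minus strand), and capitals mark the TATA box letters TATAAA.
Abcg5 window: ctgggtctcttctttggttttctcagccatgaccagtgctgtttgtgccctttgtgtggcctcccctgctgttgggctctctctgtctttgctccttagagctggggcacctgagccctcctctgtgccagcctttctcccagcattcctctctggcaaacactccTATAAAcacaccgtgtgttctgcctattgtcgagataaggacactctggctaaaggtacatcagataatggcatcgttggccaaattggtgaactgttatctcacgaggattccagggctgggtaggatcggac
These letters lie at -84 to -79 from the Abcg5 start and, read on the other strand, at -31 to -26 from the Abcg8 start. TATAAA was present on either strand in 13.616% of all windows and in 5 of the 11 windows of these genes, of which the 2 of Abcg5 and Abcg8 share the same bases. No direct repeat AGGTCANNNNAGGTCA with up to 2 mismatches, the letters of a liver X receptor site, was found in the 11 windows, against 3.023% of all windows. CAAGGTCA, the letters of a liver receptor homologue 1 site, was likewise found in none of the 11 and in 1.559% of all windows. The single motif AGGTCA was found in 3 of the 11, against 16.255% of all windows.

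Abcg8 read 11.05, 10.94, 10.92 and 10.90 in Het high-fat livers and 11.19, 11.15, 11.30 and 11.11 in Het control livers. Wild-type livers gave 11.25, 11.24, 11.11 and 11.35 on the high-fat diet and 11.34, 11.39, 11.35 and 11.18 on the control diet. All Het high-fat animals lay below every animal of the other 3 groups, which overlapped one another. The group means were 10.95 ± 0.07 in Het high-fat, 11.19 ± 0.08 in Het control, 11.24 ± 0.10 in WT high-fat and 11.31 ± 0.09 in WT control livers (SD, n = 4 each). From the top the order was thus WT control, WT high-fat, Het control and Het high-fat, and the means of the 3 higher groups lay within the range of their neighbours' animals.

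In heterozygotes the high-fat minus control difference of Abcg8 was -0.24 (SE 0.07, 95% interval -0.38 to -0.09), a ratio of 0.849, with an unadjusted p of 0.00293 and a limma adjusted p of 0.0637. It missed the threshold. In wild type the difference was -0.08 (SE 0.07, interval -0.22 to 0.07, adjusted p = 0.926). The interaction was -0.16 (SE 0.10, interval -0.36 to 0.04, adjusted p = 0.639), so the diet difference was not shown to differ between genotypes. Het minus WT was -0.29 on the high-fat diet (SE 0.07, interval -0.43 to -0.14, adjusted p = 0.628) and -0.13 on the control diet (SE 0.07, interval -0.27 to 0.01, adjusted p = 0.335). Averaged over both diets it was -0.21 (SE 0.05, interval -0.31 to -0.11), with an unadjusted limma p of 0.000476 and an adjusted p of 0.573. By p, Abcg8 ranked 9 of 19938 genes in that comparison and 17 by genotype on the high-fat diet, but it passed in neither. The diet and genotype comparisons share the Het high-fat animals and are not independent of each other. Repeated quantile normalization over genes moved the diet difference in heterozygotes to -0.37 (limma adjusted p = 0.0345), that over both genotypes to -0.24 (0.0398) and the genotype difference on the control diet to -0.02.

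Abcg5 read 12.31, 12.17, 12.14 and 12.19 in Het high-fat livers and 12.39, 12.25, 12.52 and 12.36 in Het control livers. In wild type it read 12.48, 12.44, 12.30 and 12.38 on the high-fat diet and 12.56, 12.76, 12.54 and 12.47 on the control diet. Het high-fat animals were the lowest and WT control animals the highest as groups, with Het control and WT high-fat between them, and each group overlapped its neighbour. The diet difference was -0.18 in heterozygotes (SE 0.07, 95% interval -0.33 to -0.02, limma adjusted p = 0.129) and -0.18 in wild type (SE 0.07, interval -0.34 to -0.02, adjusted p = 0.674). Over both genotypes it was -0.18 (SE 0.05, interval -0.29 to -0.07, adjusted p = 0.0802), and for Abcg8 the same contrast gave -0.16 (SE 0.05, interval -0.26 to -0.06, adjusted p = 0.0890). Without Het control animal 2, Abcg5 passed in this contrast, with -0.20 and a limma adjusted p of 0.0326, and Abcg8 did not, with -0.16 and 0.0613. That made 1 of 10 genes called, against 3.57% of all genes, while 0 of 10 were called by diet in heterozygotes without this animal, against 0.873% of all genes. The interaction of Abcg5 was 0.004 (SE 0.10, interval -0.22 to 0.23). Het minus WT was -0.20 on either diet (SE 0.07, adjusted p = 0.9996 on the high-fat diet and 0.287 on the control diet). Over both diets it was -0.20 (SE 0.05, interval -0.31 to -0.09), with an unadjusted limma p of 0.00128, rank 25 of 19938 genes, and an adjusted p of 0.573. After repeated quantile normalization it was -0.10 on the control diet and -0.13 over both, and the diet difference in heterozygotes was -0.28 (limma adjusted p = 0.0578).

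Between animals of 1 group, Abcg5 and Abcg8 had positively correlated levels, though this did not pass after adjustment. The correlation of their deviations from the group means was 0.734 over 16 arrays (Pearson, permutation p = 0.00675; Spearman 0.683, permutation p = 0.0144), and 0.630 without the 2 arrays farthest from the median of Abcg5. Adjusted over the 45 pairs of the 10 genes, the Pearson p was 0.107, and 0 of the 45 pairs passed. Slc10a1 with Nr1h4 gave 0.869 (permutation p = 0.00393, adjusted p = 0.107) and 0.618 without Het control animal 2, which was lowest for both genes. Cyp7a1 with Slc10a1 gave 0.606 (permutation p = 0.00711, adjusted p = 0.107), and 0.393 without the 2 arrays farthest from the median of Cyp7a1, WT control animal 4 and Het control animal 2. Abcg8 with Nr0b2 gave -0.661 (permutation p = 0.0242, adjusted p = 0.273). These arrays share the normalization, so their values are not fully independent.

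**Figure D2:**
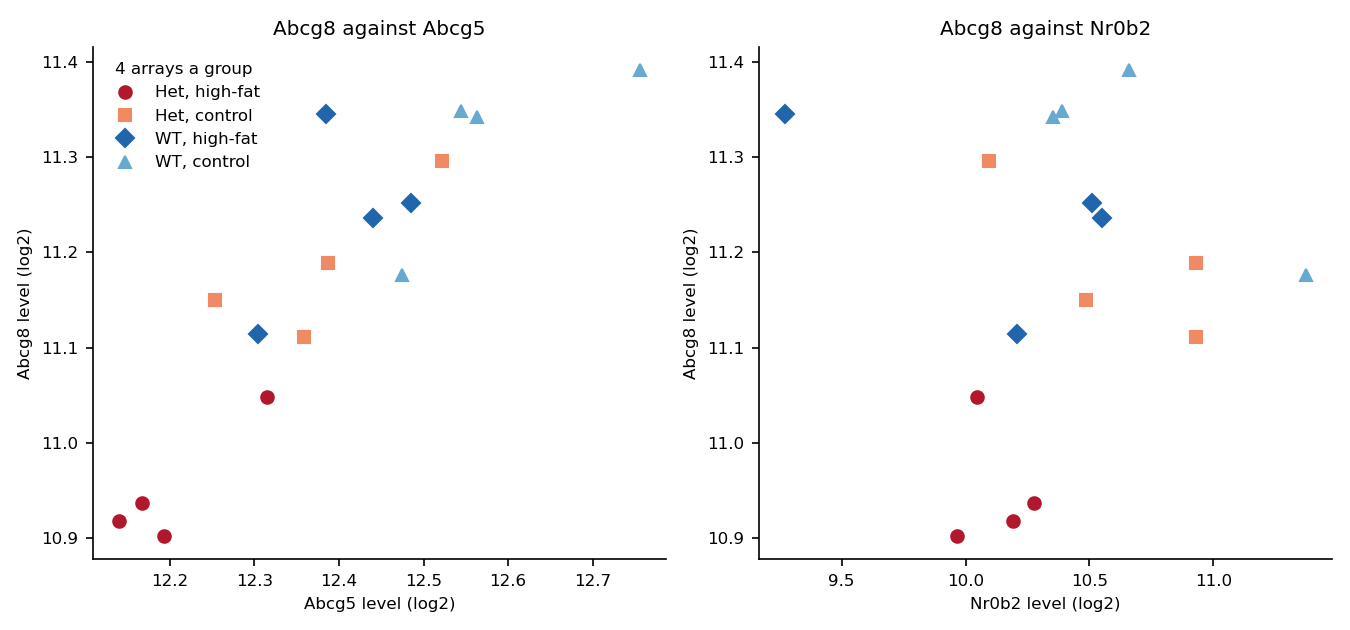
Log2 level of Abcg8 against that of Abcg5 (left) and of Nr0b2 (right), 1 point per array, 4 arrays a group. On the left the points of all groups run along 1 line with the Het high-fat arrays at the lower end, and within groups the correlation was 0.734; on the right the correlation within groups was -0.661.

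Slc10a1, the sodium-dependent carrier that takes up conjugated bile acids from blood, averaged 13.62 ± 0.03 in Het high-fat livers, 13.60 ± 0.17 in Het control livers, 13.68 ± 0.03 in WT high-fat livers and 13.71 ± 0.06 in WT control livers (SD, n = 4 each). Het control animal 2 read 13.35, and its 3 group mates 13.66 to 13.71. The diet difference was 0.02 in heterozygotes (SE 0.07, 95% interval -0.13 to 0.17, limma adjusted p = 0.811) and -0.06 without that animal (adjusted p = 0.502). In wild type it was -0.03 (SE 0.07, interval -0.18 to 0.12, adjusted p = 0.976).

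Nr0b2, the small heterodimer partner, an orphan receptor without a DNA-binding domain that represses bile acid synthesis genes, read 10.05, 10.28, 10.19 and 9.97 in Het high-fat livers and 10.93, 10.48, 10.10 and 10.93 in Het control livers. In wild type it read 10.51, 10.55, 10.21 and 9.27 on the high-fat diet and 10.35, 10.66, 10.39 and 11.37 on the control diet. Most high-fat animals were below most control animals, but the groups overlapped, and the extremes were WT high-fat animal 4 and WT control animal 4. The diet difference was -0.49 in heterozygotes (SE 0.26, 95% interval -1.05 to 0.07, limma adjusted p = 0.198) and -0.56 in wild type (SE 0.26, interval -1.11 to -0.001, adjusted p = 0.776). Over both genotypes it was -0.52 (SE 0.19, interval -0.92 to -0.13), a ratio of 0.695, with an unadjusted p of 0.0121 and an adjusted p of 0.119. Leaving out single arrays gave -0.61 to -0.38 for this value, and the wild-type difference was -0.27 without WT high-fat animal 4 and -0.33 without WT control animal 4. By genotype, Het minus WT was -0.02 on the high-fat diet (interval -0.57 to 0.54) and -0.08 on the control diet (interval -0.64 to 0.47).

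Nr1h4, the farnesoid X receptor and the sensor of bile acids, averaged 11.54 ± 0.10 in Het high-fat livers, 11.39 ± 0.28 in Het control livers, 11.62 ± 0.14 in WT high-fat livers and 11.62 ± 0.11 in WT control livers (SD, n = 4 each). Het minus WT on the control diet was -0.23 (SE 0.11, 95% interval -0.46 to 0.01, limma adjusted p = 0.323). Without Het control animal 2, which read 10.99 against 11.43 to 11.60 in its group mates, this difference was -0.09 (adjusted p = 0.823). The diet difference was 0.15 in heterozygotes (SE 0.11, adjusted p = 0.322), 0.02 in them without that animal, and 0.002 in wild type (SE 0.11, adjusted p = 0.999).

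**Figure D3:**
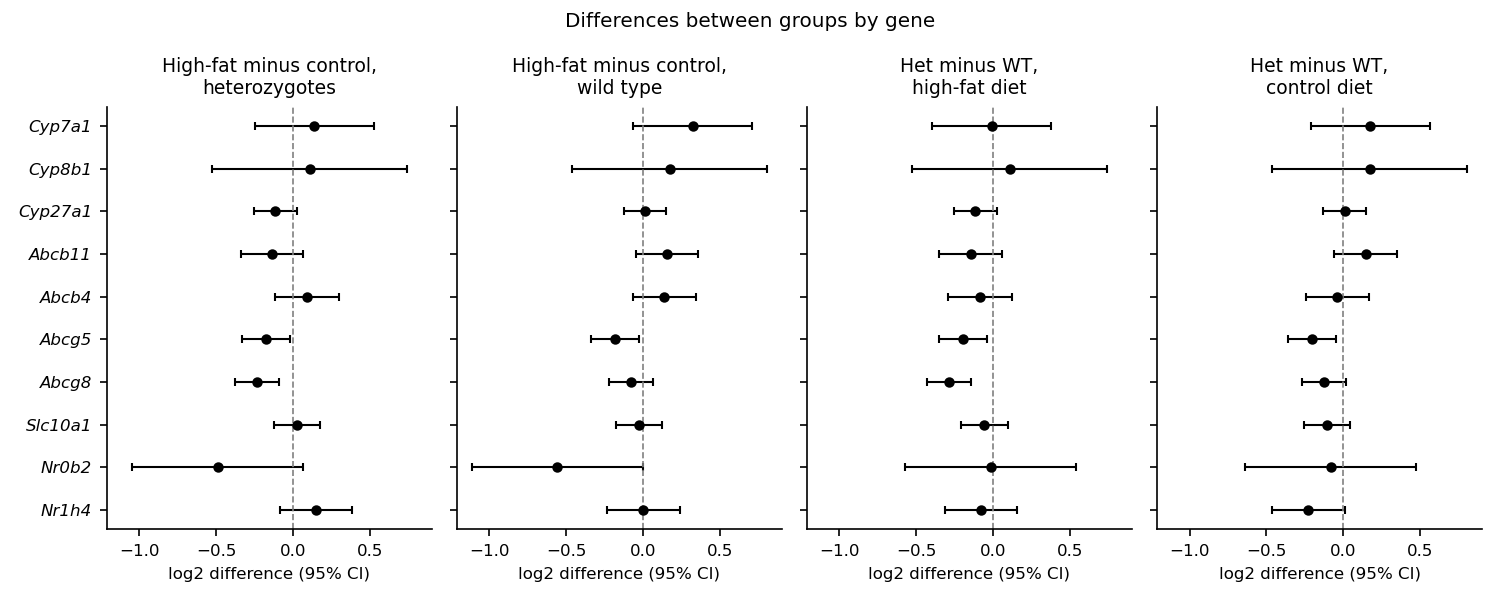
Log2 difference of each gene with its 95% confidence interval from the limma fit, in 4 comparisons. Abcg5 and Abcg8 lie left of 0 in all 4 panels, at -0.08 to -0.29, and the intervals of Cyp8b1 and Nr0b2 are the widest.

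Against the other genes on the array, the 10 genes did not stand out by number of calls. With limma, 0 of 10 were called by diet in heterozygotes, where 2.22% of all genes were, and 2 of 10 had an unadjusted p under 0.05, against 31.6% of all genes. By diet in wild type 0 of 10 were called, where 0% of all genes were, and 2 of 10 had an unadjusted p under 0.05, against 6.43%. By diet over both genotypes these values were 0 of 10 against 1.86%, and 3 of 10 against 26.9%. By genotype on the high-fat diet they were 0 of 10 against 0.00502%, and 2 of 10 against 3.57%. By genotype on the control diet they were 0 of 10 against 0%, and 1 of 10 against 15.7%. By genotype over both diets they were 0 of 10 against 0.00502%, and 2 of 10 against 7.76%. For the interaction they were 0 of 10 against 0%, and 1 of 10 against 8.13%. No tool other than limma was run.

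Whether the 4 arrays of 1 group all lie on 1 side of the 4 of the other gives another scale. Abcg8 was the 1 of 10 that separated by diet in heterozygotes, where 13.7% of all genes did, and the 1 of 10 that separated by genotype on the high-fat diet, where 3.75% did. None of the 10 separated by diet in wild type (8.5% of all genes) or by genotype on the control diet (6.12%). The median log2 difference of the 10 genes by genotype was -0.08 on the high-fat diet, with 9 of 10 below 0, and -0.06 on the control diet, with 6 of 10 below 0. The medians of all genes were 0.01 and 0.04 in these comparisons, with 9216 and 7848 of 19938 genes below 0. By diet the median of the 10 was -0.05 in heterozygotes and 0.01 in wild type, and that of all genes was -0.05 and -0.01. All genes are not a match in level, since the 10 lie at percentiles 85.7 to 99.8 of mean level. Het control animal 2 enters the genotype comparison on the control diet and the diet comparison in heterozygotes. Repeated quantile normalization gave all-gene medians of 0.01 and -0.02 there, and medians of the 10 without that animal were not examined.

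The genes also differed in how far animals of 1 group lay apart. The standard deviation within groups was 0.497 for Cyp8b1, 0.436 for Nr0b2 and 0.298 for Cyp7a1, against a median of 0.125 over all genes. It was 0.0809 for Cyp27a1, 0.0846 for Abcg8, 0.0921 for Slc10a1 and 0.0982 for Abcg5. Among all genes, 99.7% had a smaller value than Cyp8b1 and 12.9% a smaller value than Cyp27a1. Without Het control animal 2 the median over all genes was 0.0936, and the order of the narrow genes changed: Slc10a1 had the smallest value of the 10, at 0.0388, with 0.727% of all genes below it. Cyp27a1 then had 0.0841, Abcg8 0.0875 and Abcg5 0.0927, while 99.9% of genes were below Cyp8b1. The precision of each difference followed this spread, with an SE of 0.30 for Cyp8b1 and 0.07 for Cyp27a1 within a genotype.

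Lists of other genes of the same pathway were chosen with earlier results of these data known, and some of their genes were called by diet. Of all genes, 2.22% were called by diet in heterozygotes and 1.86% over both genotypes. Among 16 genes listed as other bile acid, sterol and organic anion transporters, Abcc3 rose and Slco1a1 fell in heterozygotes. The 16 include Ephx1, which encodes an enzyme. Among 17 other regulators of bile acid synthesis, Nr1h3 rose there, and it is also 1 of 9 further liver X receptor targets. None of 17 other bile acid synthesis and conjugation genes, none of 16 sterol synthesis and uptake genes under sterol feedback and none of 16 clock genes was called in heterozygotes. No gene of these lists was called by diet in wild type or by genotype on either diet, comparisons in which 0% of all genes were called by diet in wild type and by genotype on the control diet, and 0.00502% by genotype on the high-fat diet. The median difference in heterozygotes was 0.10 for the synthesis genes, 0.09 for the transporters, 0.07 for the regulators, 0.11 for the liver X receptor targets, 0.02 for the sterol feedback genes and 0.11 for the clock genes, against -0.05 for all genes. Het control animal 2 had the lowest mean level of its group in each of these lists. For the regulators it read 10.59, against 10.69 to 10.78 in its group mates, and for the clock genes 9.79, against 9.89 to 10.01. List medians without that animal were not examined.

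Slco1a1, a basolateral organic anion uptake carrier, read 6.82, 7.06, 6.58 and 6.72 in Het high-fat livers and 9.95, 9.39, 9.46 and 10.07 in Het control livers. Wild-type livers gave 8.77, 9.94, 6.91 and 6.84 on the high-fat diet and 10.02, 8.98, 8.61 and 9.06 on the control diet. All Het high-fat animals were low, and the WT high-fat animals were split between low and high values. It fell by 2.92 on the log2 scale in heterozygotes (SE 0.50, limma adjusted p = 0.0139). In wild type the difference was -1.05 (SE 0.50, adjusted p = 0.782), and the interaction was -1.87 (SE 0.71, adjusted p = 0.529). The call in heterozygotes held in all 16 fits that left out 1 array.

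Abcc3, a basolateral exporter of conjugated bile acids, read 12.21, 12.08, 12.36 and 12.10 in Het high-fat livers and 11.88, 11.34, 11.74 and 11.91 in Het control livers. In wild type it read 12.11, 12.18, 12.39 and 12.45 on the high-fat diet and 11.84, 11.91, 11.92 and 11.71 on the control diet. In both genotypes every high-fat animal was above every control animal. Of all genes, 13.7% separated by diet in heterozygotes and 8.5% in wild type, in either direction. Abcc3 rose by 0.47 in heterozygotes (SE 0.11, limma adjusted p = 0.0453), and over both genotypes by 0.45 (SE 0.08, adjusted p = 0.0137). The call in heterozygotes held in 2 of the 16 fits that left out 1 array, and with only the heterozygote arrays in the fit the adjusted p was 0.215. Without Het control animal 2 the value was 0.34 (adjusted p = 0.0672). The call over both genotypes held in all 16. In wild type the difference was 0.43 (SE 0.11, adjusted p = 0.363).

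Nr1h3, the liver X receptor alpha, read 10.92, 11.14, 11.08 and 10.99 in Het high-fat livers and 10.68, 10.42, 10.72 and 10.78 in Het control livers. Wild-type livers gave 10.88, 10.94, 10.95 and 10.79 on the high-fat diet and 10.76, 10.71, 10.88 and 10.91 on the control diet. The heterozygote groups did not overlap, as in 13.7% of all genes, and the wild-type groups did overlap. It rose by 0.38 in heterozygotes (SE 0.08, limma adjusted p = 0.0352), with a difference of 0.08 in wild type (SE 0.08, adjusted p = 0.942) and an interaction of 0.30 (SE 0.11, adjusted p = 0.515). The call in heterozygotes held in 13 of the 16 fits that left out 1 array, and with only the heterozygote arrays in the fit the adjusted p was 0.189.

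Over both genotypes, 3 further genes of these lists were called. Pltp, the phospholipid transfer protein and a liver X receptor target, fell by 0.80 (SE 0.11, limma adjusted p = 0.00594), averaging 11.02 ± 0.12 in Het high-fat, 11.62 ± 0.31 in Het control, 11.26 ± 0.13 in WT high-fat and 12.27 ± 0.35 in WT control livers (SD, n = 4 each). Ephx1, the microsomal epoxide hydrolase, rose by 0.48 (SE 0.11, adjusted p = 0.0302), and Cyp46a1, a cholesterol hydroxylase known mainly from neurons, fell by 0.20 (SE 0.05, adjusted p = 0.0379). The call of Pltp held in all 16 fits without 1 array, that of Ephx1 in 8 and that of Cyp46a1 in 4. Nr1h3 rose by 0.23 over both genotypes (SE 0.06, adjusted p = 0.0480), a call that held in 2 of the 16, and repeated quantile normalization gave 0.14 (adjusted p = 0.110). Where no gene of a list was called in heterozygotes, the 2 genes of smallest p were Cyp46a1 (-0.19, adjusted p = 0.0979) and Baat (0.36, 0.0985) for synthesis, Pmvk (-0.50, 0.121) and Msmo1 (0.55, 0.167) for sterol feedback, and Bhlhe40 (0.39, 0.0832) and Nr1d1 (-0.37, 0.109) for the clock.

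**Figure D4:**
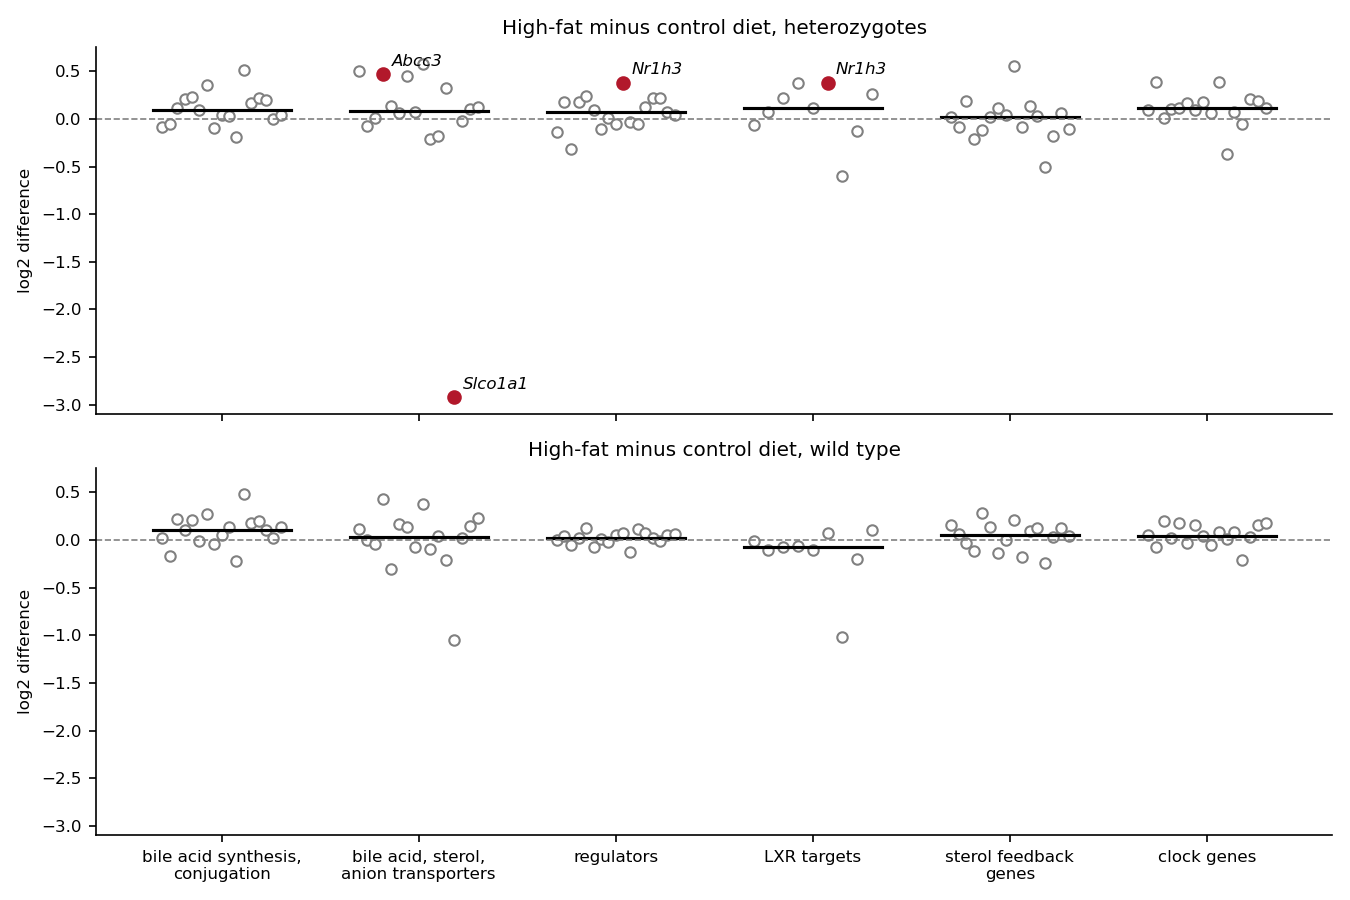
High-fat minus control log2 difference of each gene in 6 lists of related genes, in heterozygotes (top) and wild type (bottom); filled points are called at a limma adjusted p under 0.05 and bars are list medians. In heterozygotes Slco1a1 lies at -2.92, Abcc3 at 0.47 and Nr1h3, which is in 2 lists, at 0.38, and no point is filled in wild type.

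Among markers of other liver cells, calls by diet in heterozygotes were mostly of macrophage markers. Of 12 macrophage and Kupffer cell markers 7 rose, in a comparison where 2.22% of all genes were called in either direction. Their median difference was 0.55, against -0.05 for all genes. Their mean level was 10.32 to 10.70 in Het high-fat, 9.76 to 10.23 in Het control, 9.95 to 10.47 in WT high-fat and 10.16 to 10.34 in WT control livers. Of 8 bile duct markers Tspan8 fell, by 0.35 (limma adjusted p = 0.0372), with mean levels of 7.25 to 7.35 in Het high-fat, 7.49 to 7.71 in Het control, 7.31 to 7.43 in WT high-fat and 7.27 to 7.53 in WT control livers. Het control animal 2 gave the lowest macrophage mean of its group, 9.76, and the highest bile duct mean, 7.71. Marker differences without that animal were not examined. Of 10 stellate cell and matrix markers Lrat rose, by 0.96 (limma adjusted p = 0.0465), while 5 of the 10 had lower values, the median difference was -0.03, and Col1a1, the next by p, had -0.23 (limma adjusted p = 0.101). Of 11 hepatocyte markers none was called, with a median difference of 0.01, and none of 10 sinusoidal endothelial, 9 lymphocyte and 10 pancreas and gut markers was called. Their part in the values of the 10 genes was not tested, and in whole liver fewer cells of a type and less RNA per cell cannot be told apart.

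Genes whose levels were most like those of 4 of the 10 were found by Pearson correlation over the 16 arrays, as a description. The 3 most like Abcg5 were Tgfbr3 (0.913, and 0.787 within groups), Tpm1 (0.891, and 0.760) and Oxa1l (0.858, and 0.673), while Abcg8 itself had 0.894 with Abcg5. The 3 most like Cyp7a1 were Neb (0.84, and 0.80 within groups), Mpzl3 (0.83, and 0.83) and Zmat3 (0.81, and 0.83). The 3 most like Cyp8b1 were Lrtm1 (0.811, and 0.827 within groups), Tmem205 (0.802, and 0.835) and Epm2a (0.800, and 0.849). The 3 most like Nr0b2 were Rpl36 (0.83, and 0.74 within groups), Mycn (0.82, and 0.88) and Irf2bp2 (0.81, and 0.75). All of these share arrays and normalization, and the search ran over all genes outside the 10.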

How the data were processed

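Total RNA of 16 mouse livers was hybridised to Affymetrix MoGene 1.0 ST arrays, 1 per animal. The authors deposited 1 log2 value for each probe set, obtained by RMA with the Affymetrix Expression Console software, as stated per the submitters' processing notes, without versions. RMA equalises the probe intensities of the arrays before probes are combined, and the deposited values per probe set need not share 1 distribution. Of 35556 probe sets, 21789 have 1 gene symbol; 1621 with several and 12146 with none were not used. Symbols were updated through the Entrez number with a RefSeq table (GRCm38.p6, 19856 of 19938 genes). For the 999 genes with several probe sets the highest mean over arrays was used.

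Groups come from the genotype and diet labels. All 16 arrays entered 1 limma 3.58.1 fit in R 4.3.3 (lmFit, eBayes, a mean for each group), tested on simulated data, with Benjamini-Hochberg adjustment over 19938 genes of a contrast. P-values measure the spread between animals, which are treated as independent, and 4 arrays per group limit the precision. The sample titles hold a serial number that runs group by group, so any effect of that order cannot be told apart from group. They also hold 11 other numbers, called title numbers here, of which 5 occur on several arrays, also within each group. The meaning of the title numbers is not stated, so independence within a group could not be checked. Correlations used 100000 permutations of 1 gene within groups (Python 3.11.15, numpy 2.4.6). Alternatives were trend and robust moderation, only the arrays compared, all probe sets, a filter on low levels, repeated quantile normalization, array weights, the number in the sample titles as a random block (statmod 1.5.0), and leaving out each array. The genes and lists were chosen with earlier results of these data known. Named genes are the 10 members in every contrast, the called genes of each list or else the 2 of smallest p, the 3 genes most like Cyp7a1, Cyp8b1, Abcg5 and Nr0b2, and Gli2 and Gli1. Promoter windows (250 bases before to 50 after a start) are from RefSeq, GRCm38.p6, searched on both strands.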

Additional observations from a re-analysis of the deposited data

Results flagged for a closer look

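Slc10a1 read 13.35 in Het control animal 2, and 13.66 to 13.71 in the other 3 animals of its group. Its gap to the nearest of them, relative to the range of the group, was above Dixon's 95% critical value for 4 values. Of the 40 groups of values checked (10 genes in 4 groups), this was the 1 that did so, and chance alone flags about 1 in 20. The same array had the lowest Nr1h4 and Abcb4 values of all 16. Its array weight in limma was 0.0698.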

How the results depend on the processing

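The count of called genes among the 10 was 0 in each of the 7 comparisons and stayed 0 in 149 of its 158 refits. It differed in 9, all of them by diet. In heterozygotes, repeated quantile normalization called 1 (Abcg8, -0.37, adjusted p = 0.0345), array weights 1 (Abcg8, -0.26, 0.0313), and the title number as a random block 2 (Abcg8, -0.25, 0.00966; Abcg5, -0.19, 0.0306). Leaving out single arrays gave 0 to 1, the 1 being Abcg8 without Het control animal 4 (-0.26, 0.0300). Over both genotypes, repeated quantile normalization called 2 (Abcg5, -0.25, 0.0344; Abcg8, -0.24, 0.0398), array weights 2 (Abcg5, -0.20, 0.0179; Abcg8, -0.17, 0.0203) and the random block 3 (Abcg5, -0.20, 0.0120; Abcg8, -0.16, 0.0190; Nr0b2, -0.58, 0.0292). Leaving out single arrays gave 0 to 1, with Abcg5 called without Het control animal 2 (-0.20, 0.0326) and Abcg8 without Het control animal 4 (-0.17, 0.0470). The cause of these calls was not tested. The random block had a consensus correlation of -0.372, below 0, and called 6938 of all genes by diet in heterozygotes and 3703 over both genotypes, against 442 and 371. Array weights called 1067 and 2105, and leaving out Het control animal 4 called 3446 and 1754. Without Het control animal 2 the count over all genes was 174 in heterozygotes and 712 over both genotypes. Repeated quantile normalization gave an all-gene median of -0.02 in heterozygotes, against -0.05. In no refit did a call change sign. No paired analysis was possible because the labels give no replicate numbers. Of the 11 title numbers only 1 occurred in both diets and 0 in both genotypes. Other probe sets of the 10 genes could not be tried, since each has 1.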

Other observations

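The gene most like Abcb4 over the 16 arrays was Crot, which encodes the peroxisomal carnitine octanoyltransferase, with a Pearson correlation of 0.909, of 0.897 within groups and of 0.862 without Het control animal 2. In the RefSeq table no protein-coding gene lies between them (0 genes between), and the clock gene Clock was also among the 3 genes most like Abcb4, at 0.881. Crot and Clock are named after their values were seen. Of the 10 genes, Abcb4 was the 1 whose most similar gene was its neighbour. Whether probes of the 2 genes overlap was not tested.

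Tgfbr3, which encodes betaglycan, was the gene most like both sterol exporter genes, at 0.913 with Abcg5 and 0.907 with Abcg8, and at 0.971 and 0.918 without Het control animal 2. Its place for Abcg8 was looked up after its value for Abcg5 was seen.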
